A study of Mus musculus with 9 samples.

Results

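A set of 10 genes of the Notch pathway was followed in E14 mouse embryonic stem cells kept in 3 media. They were taken by symbol, all 10 were found among the 24819 genes of the deposited table, and they comprise 4 receptors (Notch1, Notch2, Notch3 and Notch4), 4 ligands (Dll1, Dll3, Jag1 and Jag2) and 2 target genes (Hes1 and Hey1). The EPSCM group was grown in expanded potential stem cell medium, the 2iLIF group in N2B27 with leukemia inhibitory factor (LIF) and the 2i inhibitor pair, which blocks MEK and GSK3, and the ES group in serum medium with LIF. Each medium had 3 RNA-seq libraries, on gelatin-coated plates and with no genetic change named in the labels. E14 is an established line, and nothing in the labels ties the 3 libraries to separate cultures. The p-values below thus measure library spread only, and that spread may be technical.

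Notch signalling runs between touching cells. A ligand of the Delta or Jagged family on 1 cell binds a Notch receptor on its neighbour, the receptor is cut by the protease ADAM10 and then by gamma-secretase, and its freed intracellular part joins the DNA-binding protein RBPJ and a Mastermind coactivator to switch on HES and HEY repressor genes. In mouse embryonic stem cells the pathway is known for its part in the choice of neural fate rather than for self-renewal, and Hes1 in these cells is also known to respond to LIF and BMP signals.

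Levels are FPKM, fragment counts scaled for transcript length and library size, so different genes can be compared per length. A difference is one of log2(FPKM + 1) values, given ± SE, a scale on which changes of low genes come out too small. A gene was tested when at least 3 of the 9 libraries reached 1 FPKM, as 12330 genes did, and it counts as called where limma gave an adjusted p under 0.05 and the difference reached 1 in either direction, the fold limit below. All 10 Notch genes were tested, Dll1 only through its EPSCM level. Library sums were 546636 to 600728 FPKM. Judged from the lowest values, a single fragment from 1 kb of transcript adds about 0.0451 to 0.0617 FPKM, an estimate that runs high where those values hold more than 1 fragment. ES replicate 1, 2iLIF replicate 1 and EPSCM replicate 2 stood apart from the others on the third principal component of all tested genes, which held 6.46% of the variance. In the 30 pairs of a Notch gene and a medium, the library that stands apart was the highest of its 3 in 24 pairs and the lowest in 3. The other 6 libraries taken alone gave the same calls for the Notch genes. All 10 stem cell marker genes averaged at least 1 FPKM in every medium, and they summed to 1614 to 1837 FPKM in EPSCM, 3132 to 3493 in 2iLIF and 3713 to 4281 in ES. The mean of each of the 10 was lower in EPSCM than in ES, with Pou5f1 at 627 ± 88.4 FPKM in EPSCM and 1352 ± 162 in ES, and Utf1 at 28.4 ± 2.30 in EPSCM and 536 ± 50.03 in ES (SD, n = 3 libraries). The part of this difference in the results for the Notch genes was not tested. The sources used here do not say how strand entered the counts. In the GENCODE annotation, genes on the other strand overlap exons of Notch1, Notch3 and Dll1, and the 1 of them in the table, 0610009E02Rik at Notch1, stayed between 0.0872 and 0.511 FPKM. On the same strand, Gm42820 overlaps exons of Notch2, and it has no values in the deposited table.

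The 4 receptor genes summed to 41.7 ± 3.55 FPKM in EPSCM, 19.05 ± 0.879 in 2iLIF and 25.9 ± 1.09 in ES (SD, n = 3 libraries). Notch1 and Notch3 were the most abundant receptors in all 3 media, and their levels followed the same order, EPSCM above ES above 2iLIF, with no overlap between the libraries of any pair of media. In 2iLIF the ranges of Notch3 and Notch2 overlapped. Notch2 followed another order, EPSCM above 2iLIF above ES, and Notch4 was highest in ES.

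Notch1, the receptor best known from T cell development and leukaemia, stood at 16.03, 18.9 and 16.1 FPKM in EPSCM replicates 1 to 3, at 7.10, 6.69 and 6.34 in 2iLIF and at 9.68, 8.80 and 8.85 in ES. All 3 EPSCM libraries lay above the other 6. It was called higher in EPSCM than in 2iLIF, by 1.22 ± 0.08 (limma adjusted p = 1.22e-06). The difference between EPSCM and ES was 0.83 ± 0.08 (limma adjusted p = 1.27e-05), larger than the spread between libraries but short of the fold limit, and that between 2iLIF and ES was -0.39 ± 0.08 (limma adjusted p = 0.00193).

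Notch3, known from vascular smooth muscle, was at 14.7, 17.3 and 15.5 FPKM in EPSCM, at 5.07, 4.74 and 4.61 in 2iLIF and at 9.26, 8.73 and 8.86 in ES. The 3 media were again fully separated. It was called higher in EPSCM than in 2iLIF, by 1.53 ± 0.07 (limma adjusted p = 1.59e-07), and stood at 0.76 ± 0.07 for EPSCM against ES and at -0.78 ± 0.07 for 2iLIF against ES (limma adjusted p = 1.17e-05 and 1.26e-05), both under the fold limit. The log2 profiles of Notch1 and Notch3 over the 9 libraries, each centred on its own mean, differed by a root mean square of 0.17, the smallest value among the 6 pairs of receptors. The next smallest, 0.41, was that of Notch1 and Notch2.

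Notch2, a widely expressed receptor, averaged 5.98 ± 0.373 FPKM in EPSCM, 4.51 ± 0.332 in 2iLIF and 2.99 ± 0.138 in ES (SD, n = 3 libraries). Its differences were 0.81 ± 0.07 for EPSCM against ES, 0.34 ± 0.07 for EPSCM against 2iLIF and 0.47 ± 0.07 for 2iLIF against ES, none of them called, with limma adjusted p-values of 6.12e-06, 0.00177 and 2.78e-04. It was the 1 receptor whose 2iLIF libraries all lay above its ES libraries. Notch4, best known from endothelium, ran the other way, at 2.90 ± 0.217 FPKM in EPSCM, 3.01 ± 0.0519 in 2iLIF and 4.81 ± 0.203 in ES (SD, n = 3 libraries). It differed by -0.57 ± 0.06 for EPSCM against ES and by -0.53 ± 0.06 for 2iLIF against ES (limma adjusted p = 2.51e-05 and 5.38e-05), short of the fold limit, while its EPSCM and 2iLIF libraries overlapped (-0.04 ± 0.06, limma adjusted p = 0.551). The 7 endothelial marker genes, mostly Pecam1, summed to 64.5 to 68.7 FPKM in EPSCM, 34.9 to 37.2 in 2iLIF and 24.1 to 25.9 in ES. Without Pecam1 the list was low: Emcn was at 0 in all 9 libraries, and Cdh5, Tie1, Tek and Esam had their highest means in ES, as Notch4 did, with Tek at 2.11 ± 0.197 FPKM in EPSCM, 1.78 ± 0.0894 in 2iLIF and 2.97 ± 0.337 in ES (SD, n = 3 libraries). Kdr instead had its highest mean in 2iLIF, at 0.115 ± 0.0318 FPKM in EPSCM, 0.673 ± 0.0089 in 2iLIF and 0.163 ± 0.0299 in ES (SD, n = 3 libraries). The part of these endothelial genes in the Notch4 result was not tested.

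The makeup of the receptor pool differed between media. Notch4 held 6.96% ± 0.0836 of the summed receptor FPKM in EPSCM, 15.9% ± 0.985 in 2iLIF and 18.6% ± 0.212 in ES. Notch2 held 14.4% ± 0.319 in EPSCM, 23.7% ± 0.717 in 2iLIF and 11.6% ± 0.153 in ES, and Notch1 and Notch3 made up the rest (SD, n = 3 libraries). No 2 media overlapped in the share of either gene.

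The promoters of Notch1 and Notch3 are shown because these genes moved most alike among the receptors. The windows run from 250 bases before to 50 after the annotated start, from RefSeq on GRCm38.p6, and capitals mark GC boxes (GGGCGG on either strand), the letters bound by SP1 family factors. The Notch1 window is chr2:26503773-26504072, minus strand, and that of Notch3 is chr17:32166841-32167140, minus strand.
Notch1: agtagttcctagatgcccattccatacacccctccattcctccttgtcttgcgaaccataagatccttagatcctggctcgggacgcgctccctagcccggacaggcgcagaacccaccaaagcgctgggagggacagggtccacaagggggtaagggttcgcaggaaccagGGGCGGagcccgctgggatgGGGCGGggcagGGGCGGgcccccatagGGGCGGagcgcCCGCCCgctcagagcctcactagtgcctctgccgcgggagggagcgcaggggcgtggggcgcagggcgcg
Notch3: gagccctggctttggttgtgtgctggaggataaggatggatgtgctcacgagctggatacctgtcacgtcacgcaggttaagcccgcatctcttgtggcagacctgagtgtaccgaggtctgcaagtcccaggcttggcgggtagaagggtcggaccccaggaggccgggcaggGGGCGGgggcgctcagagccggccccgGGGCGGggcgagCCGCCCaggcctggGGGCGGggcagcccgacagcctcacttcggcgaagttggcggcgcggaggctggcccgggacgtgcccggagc
The Notch1 window held 5 GC boxes and that of Notch3 held 4. Notch2 held 7, Jag2 held 5 and Dll3 held 1, while Notch4, Jag1 and both annotated starts of Dll1 had no match. Of 32851 windows of the same length in the table, 35.7% held at least 1. GC content was 68.3% for Notch1 and 70.0% for Notch3. It was higher for Notch2 (73.0%) and Jag2 (86.0%), and lower for Notch4 (58.3%), Jag1 (55.7%) and Dll3 (52.0%).

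**Figure D1:**
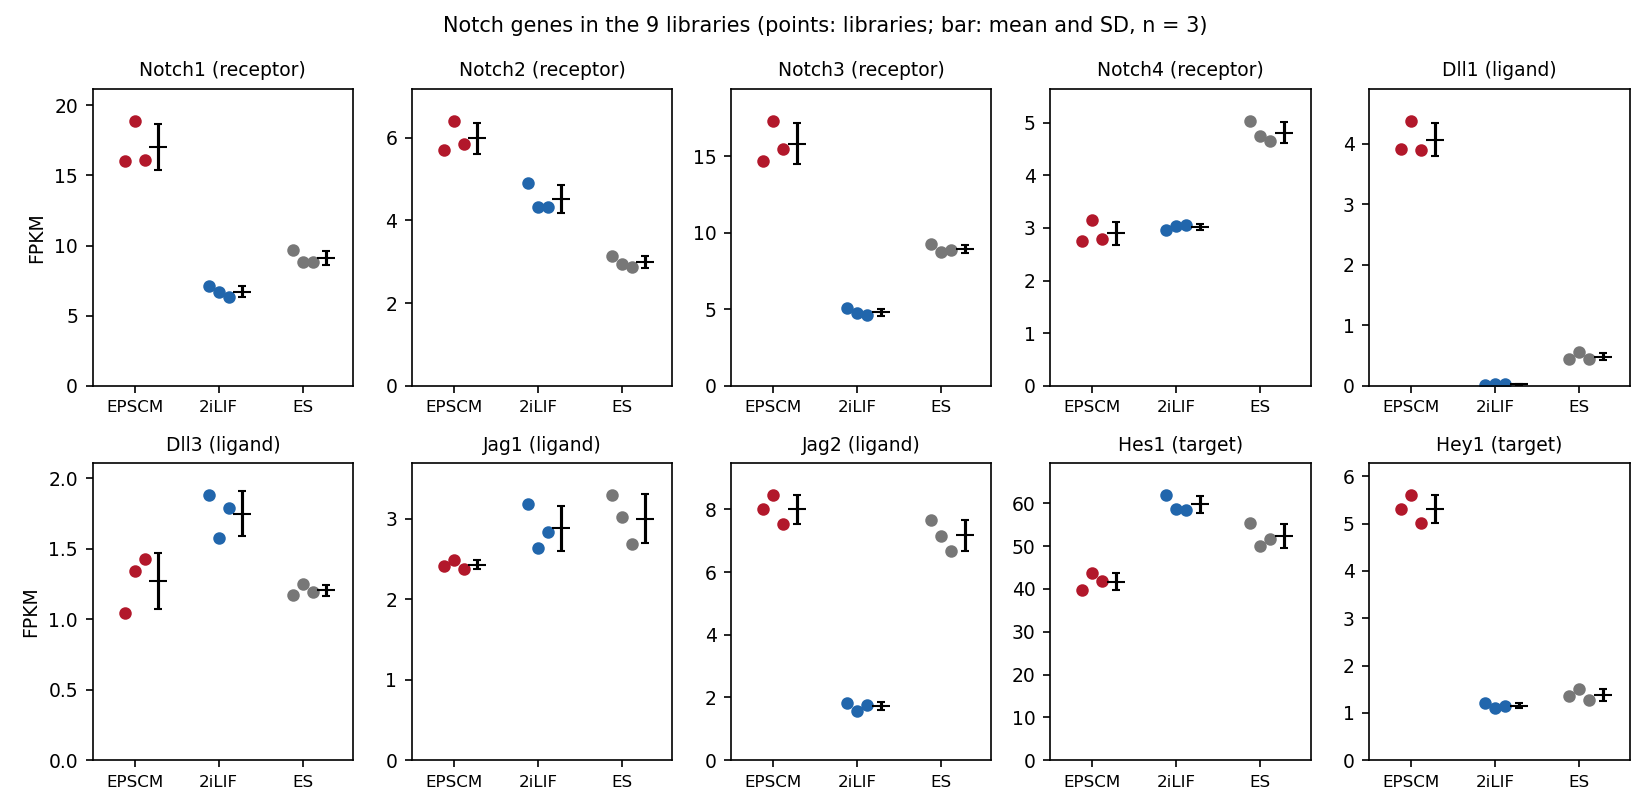
FPKM of the 10 Notch genes in each library (points, coloured by medium) with the mean and SD of the 3 libraries of a medium (black). Notch1, Notch2, Notch3, Dll1 and Hey1 are highest in EPSCM, Jag2 is low in 2iLIF alone, and Hes1 is lowest in EPSCM.

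The 4 ligand genes summed to 15.8 ± 0.780 FPKM in EPSCM, 6.38 ± 0.555 in 2iLIF and 11.9 ± 0.788 in ES (SD, n = 3 libraries). Dll1 was called higher in EPSCM against both other media, and Jag2 was called lower in 2iLIF than in ES and higher in EPSCM than in 2iLIF. Jag1 and Dll3 were called in no comparison, and their means stayed between 1.21 and 3.004 FPKM in all 3 media.

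Dll1, the Delta ligand of the presomitic mesoderm and of neurogenesis, had 3.92, 4.38 and 3.90 FPKM in EPSCM, 0.0216, 0.0314 and 0.0363 in 2iLIF and 0.453, 0.553 and 0.449 in ES. The 3 media were fully separated, and the 2iLIF values correspond to only about 1.25 to 2.88 fragments on the rough depth estimate, so no fold against 2iLIF is given. The log2 difference was 1.77 ± 0.06 for EPSCM against ES (limma adjusted p = 2.64e-08), with means 8.38 times apart, and 2.30 ± 0.06 for EPSCM against 2iLIF (limma adjusted p = 7.63e-09). For 2iLIF against ES it was -0.53 ± 0.06 (limma adjusted p = 3.80e-05), not called with a pseudocount of 1 but called at -2.17 with a pseudocount of 0.1. The lower pseudocount also moved EPSCM against ES to 2.83 and EPSCM against 2iLIF to 5.004, so the size of the Dll1 differences depends on it. Markers of the presomitic mesoderm were measured beside it: 8 fixed genes summed to 2.38 to 3.08 FPKM in EPSCM, 15.5 to 17.8 in 2iLIF, mostly T, and 3.21 to 4.01 in ES, with Rspo3 under 0.1 FPKM in all 9 libraries. The 8 neural progenitor genes summed to 18.4 to 21.1 FPKM in EPSCM, 19.7 to 23.2 in 2iLIF and 62.5 to 70.0 in ES, mostly Tubb3, with Neurog2 under 0.1 FPKM throughout. Their part in the Dll1 result was not tested, and in bulk RNA more cells with a transcript and more of it per cell cannot be told apart.

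Both annotated Dll1 starts are shown because Dll1 had the largest difference of the 10 genes, at chr17:15376883-15377182, minus strand (upstream), and at chr17:15375774-15376073, minus strand (downstream), in the same RefSeq table and build. Neither window held a GC box or the RBPJ letters GTGGGAA on either strand, so no base is in capitals.
Dll1 upstream: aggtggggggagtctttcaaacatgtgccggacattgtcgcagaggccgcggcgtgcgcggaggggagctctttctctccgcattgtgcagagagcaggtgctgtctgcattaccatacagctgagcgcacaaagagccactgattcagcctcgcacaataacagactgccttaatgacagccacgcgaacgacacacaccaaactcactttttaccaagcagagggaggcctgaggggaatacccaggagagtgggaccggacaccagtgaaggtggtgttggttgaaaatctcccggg
Dll1 downstream: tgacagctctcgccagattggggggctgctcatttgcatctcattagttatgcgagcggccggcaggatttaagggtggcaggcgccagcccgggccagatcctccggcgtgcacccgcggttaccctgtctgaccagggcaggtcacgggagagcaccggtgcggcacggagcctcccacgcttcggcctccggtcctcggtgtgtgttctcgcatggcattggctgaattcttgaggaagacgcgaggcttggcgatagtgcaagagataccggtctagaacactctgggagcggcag
GC content was 56.3% in the upstream window and 62.7% in the downstream one.

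Jag2, a Jagged ligand known from limb and thymus development, was at 8.01, 8.45 and 7.54 FPKM in EPSCM, at 1.83, 1.57 and 1.75 in 2iLIF and at 7.66, 7.16 and 6.68 in ES. All 3 2iLIF libraries lay far below the other 6, and EPSCM and ES overlapped. The difference was 1.73 ± 0.07 for EPSCM against 2iLIF (limma adjusted p = 8.69e-08, means 4.66 times apart) and -1.59 ± 0.07 for 2iLIF against ES (limma adjusted p = 1.42e-07). Between EPSCM and ES it was 0.14 ± 0.07 (limma adjusted p = 0.102), and the alternatives did not settle it: it was -0.03 after quantile normalization, while the limma adjusted p was 0.0193 with a covariate for the 3 libraries set apart, 0.0179 with libraries scaled to the same sum (difference 0.17) and 0.0071 with array weights (difference 0.16). None of these came near the fold limit.

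Jag1, the Jagged ligand mutated in Alagille syndrome in humans, averaged 2.43 ± 0.0580 FPKM in EPSCM, 2.88 ± 0.278 in 2iLIF and 3.004 ± 0.302 in ES (SD, n = 3 libraries). Its difference was -0.22 ± 0.08 for EPSCM against ES (limma adjusted p = 0.0259) and -0.18 ± 0.08 for EPSCM against 2iLIF (limma adjusted p = 0.0653). The EPSCM libraries of Jag1 lay below all others, and 2iLIF and ES overlapped (-0.04 ± 0.08, limma adjusted p = 0.629). Dll3, a divergent Delta protein that does not activate receptors on neighbouring cells, averaged 1.27 ± 0.200 FPKM in EPSCM, 1.75 ± 0.159 in 2iLIF and 1.21 ± 0.0399 in ES (SD, n = 3 libraries). The 2iLIF libraries of Dll3 were above all others, by 0.32 ± 0.08 over ES (limma adjusted p = 0.00507), with EPSCM against 2iLIF at -0.28 ± 0.08 (limma adjusted p = 0.00982). EPSCM and ES overlapped for Dll3 (0.04 ± 0.08, limma adjusted p = 0.655). After quantile normalization that difference was -0.21 (limma adjusted p = 0.0468).

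The leading ligand gene was not the same in each medium. Jag2 held 50.7% ± 1.31 of the summed ligand FPKM in EPSCM, 27.0% ± 0.436 in 2iLIF and 60.4% ± 0.579 in ES. Jag1 led in 2iLIF, with 15.4% ± 0.395 in EPSCM, 45.2% ± 0.939 in 2iLIF and 25.3% ± 0.881 in ES. Dll1 held 25.8% ± 0.435 in EPSCM, 0.473% ± 0.140 in 2iLIF and 4.09% ± 0.507 in ES (SD, n = 3 libraries).

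**Figure D2:**
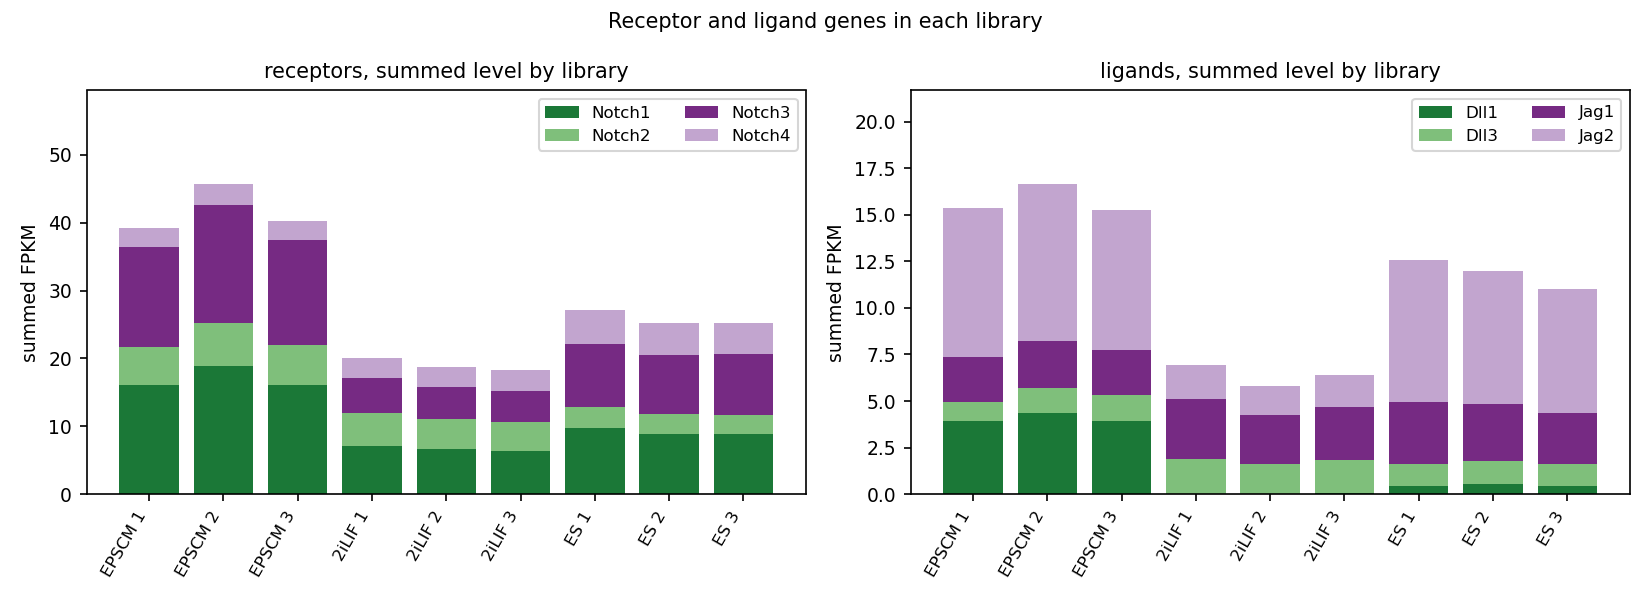
Summed FPKM of the receptor genes (left) and the ligand genes (right) in each library, stacked by gene. The EPSCM libraries have the tallest receptor bars, 39.2 to 45.8 FPKM against 18.3 to 27.1 in the other 6, and Dll1 is visible in the ligand bars of EPSCM and ES alone.

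The target genes Hes1 and Hey1 had differences of opposite sign in all 3 comparisons. Both encode basic helix-loop-helix repressors that RBPJ complexes are known to switch on. Hey1 was called higher in EPSCM against both other media, while Hes1 was lowest in EPSCM without reaching the fold limit. Hes1 was the most abundant of the 10 genes in all 3 media, with a level above that of 83.2% of tested genes in EPSCM, 88.1% in 2iLIF and 85.8% in ES.

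Hey1 stood at 5.31, 5.61 and 5.01 FPKM in EPSCM, at 1.22, 1.10 and 1.15 in 2iLIF and at 1.35, 1.51 and 1.27 in ES. All EPSCM libraries were far above the other 6. The difference was 1.41 ± 0.06 for EPSCM against ES (limma adjusted p = 1.27e-07), with means 3.86 times apart, and 1.55 ± 0.06 for EPSCM against 2iLIF (limma adjusted p = 7.40e-08), with means 4.60 times apart. Between 2iLIF and ES it was -0.14 ± 0.06 (limma adjusted p = 0.0725). Summed markers of extraembryonic cells were highest in EPSCM, though not every gene of the lists was. The 7 trophoblast genes, mostly Tfap2c, summed to 45.9 to 53.1 FPKM in EPSCM, 27.7 to 30.9 in 2iLIF and 22.5 to 25.9 in ES, with Elf5 under 0.1 FPKM throughout, and the 7 primitive endoderm genes to 9.77 to 10.5, 2.99 to 3.38 and 5.76 to 6.45 FPKM in the same order of media. Cdx2 went the other way, at 0.0411 ± 0.0229 FPKM in EPSCM, 2.85 ± 0.118 in 2iLIF and 0.109 ± 0.0309 in ES, as did Sox7, at 0.0315 ± 0.0315 in EPSCM, 0.0422 ± 0.0146 in 2iLIF and 2.79 ± 0.116 in ES, and Foxa2 had its lowest mean in EPSCM (SD, n = 3 libraries). The part of these markers in the Hey1 and Dll1 results was not tested.

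Hes1 stood at 39.7, 43.7 and 41.8 FPKM in EPSCM, at 61.9, 58.8 and 58.5 in 2iLIF and at 55.5, 50.003 and 51.8 in ES. The media did not overlap, with EPSCM lowest and 2iLIF highest. The difference was -0.32 ± 0.06 for EPSCM against ES (limma adjusted p = 9.71e-04), -0.51 ± 0.06 for EPSCM against 2iLIF (limma adjusted p = 6.19e-05) and 0.19 ± 0.06 for 2iLIF against ES (limma adjusted p = 0.0214), none of them called. As a share of the summed FPKM of the 2 targets, Hey1 held 11.3% ± 0.553 in EPSCM, 1.90% ± 0.0478 in 2iLIF and 2.57% ± 0.314 in ES (SD, n = 3 libraries).

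Other genes of these families were taken from a fixed list of 8. Nrarp, a feedback inhibitor that is itself a Notch target, averaged 5.53 ± 0.393 FPKM in EPSCM, 2.04 ± 0.143 in 2iLIF and 3.16 ± 0.235 in ES (SD, n = 3 libraries). It was called higher in EPSCM than in 2iLIF, by 1.10 ± 0.07 (limma adjusted p = 1.26e-06), a call lost after quantile normalization, at 0.93. For EPSCM against ES it was at 0.65 ± 0.07, under the fold limit. Hes6, which antagonises Hes1, averaged 12.4 ± 0.972 FPKM in EPSCM, 11.5 ± 1.82 in 2iLIF and 18.5 ± 2.23 in ES (SD, n = 3 libraries), and was called in no comparison. Its difference was -0.54 ± 0.12 for EPSCM against ES and -0.64 ± 0.12 for 2iLIF against ES (limma adjusted p = 0.0028 and 0.00113). Both were under the fold limit. EPSCM against 2iLIF stood at 0.11 ± 0.12 (limma adjusted p = 0.449). Hes2, Hes3, Hes5, Hes7, Hey2 and Heyl stayed under 1 FPKM in every library and were not tested. Hes5, a direct Notch target of neural progenitors, had 0.614, 0.444 and 0.364 FPKM in EPSCM, 0.133, 0.0282 and 0.0256 in 2iLIF, and 0.205, 0 and 0.159 in ES.

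The Hes5 window is shown for its RBPJ letters, which are in capitals (GTGGGAA or its reverse complement). It lies at chr4:154960673-154960972, plus strand, in the same RefSeq table and build.
Hes5: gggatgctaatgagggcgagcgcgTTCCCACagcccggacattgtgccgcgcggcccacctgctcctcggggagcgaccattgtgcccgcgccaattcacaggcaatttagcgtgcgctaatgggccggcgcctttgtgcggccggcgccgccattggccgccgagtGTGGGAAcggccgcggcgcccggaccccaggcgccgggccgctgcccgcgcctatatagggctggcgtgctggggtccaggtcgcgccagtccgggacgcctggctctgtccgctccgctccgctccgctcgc
It held 2 such matches and no GC box, and 6.38% of the 32851 windows held at least 1 match. No window of the 8 Notch genes with an entry held these letters, and Hes1 and Hey1 had no entry. A match says only that the letters are present.

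The counts over the 10 genes were then set beside those of all tested genes. The 10 genes were chosen with earlier results of these data known, so their shares are not those of a blind choice. EPSCM was compared with ES to ask how cells in expanded potential medium differ from serum-grown ones. Here 2 of 10 Notch genes were called higher, Dll1 and Hey1, against 11.7% of all 12330 tested genes, a share near the background for so small a set. With limma no Notch gene was called lower, against 7.97% of all genes. At an unadjusted limma p under 0.05, 3 of 10 had a negative difference (Notch4, Jag1 and Hes1). The same held for 3992 of the 12330 tested genes, a similar share. Without the fold limit 8 of 10 passed the adjusted p, against 73.1% of all genes. The median difference was 0.45 over the 10 genes and 0.09 over all tested genes.

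EPSCM was compared with 2iLIF, the medium of the naive ground state. In this comparison 5 of 10 Notch genes were called higher (Notch1, Notch3, Dll1, Jag2 and Hey1), against 10.1% of all genes, 1 of them tested only because of its EPSCM level. No Notch gene was called lower with limma, against 5.91% of all genes. At an unadjusted limma p under 0.05, 3 of 10 were negative (Dll3, Jag1 and Hes1). So were 4040 of the 12330 tested genes, a similar share. 8 of 10 passed without the fold limit, against 68.0% of all genes. The median difference was 0.78 over the 10 genes and 0.03 over all. Over all genes 1250 were called higher and 729 lower, and after quantile normalization 1010 higher and 902 lower, with the same 5 Notch genes called.

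The comparison of 2iLIF with ES asked how inhibitor-held cells differ from serum-grown ones. Jag2 was the 1 Notch gene called lower, against 7.12% of all genes. None was called higher with limma, against 7.62% of all genes. At an unadjusted limma p under 0.05, 3 of 10 were positive (Notch2, Dll3 and Hes1), beside 4475 of the 12330 tested genes. 8 of 10 passed without the fold limit, against 67.0% of all genes, and the median difference was -0.27 over the 10 genes and 0.03 over all. The 3 comparisons share libraries in pairs, so their counts are not independent.

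**Figure D3:**
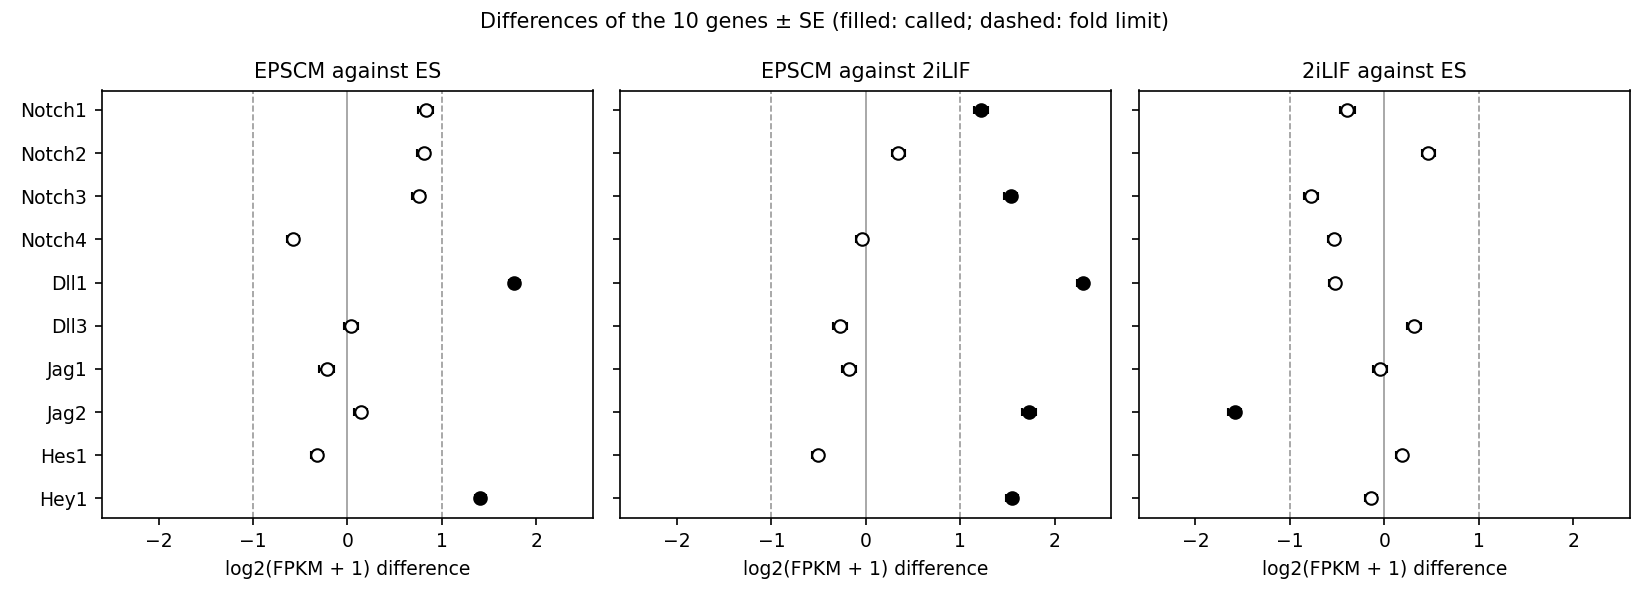
Differences on the log2(FPKM + 1) scale ± SE for the 10 Notch genes in the 3 comparisons, with called genes filled and the fold limit dashed. Dll1 and Hey1 lie beyond the limit in both EPSCM comparisons, and Jag2 lies beyond it in both comparisons with 2iLIF.

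Further genes of the pathway came from 8 fixed lists with 58 genes, of which 46 were tested. These lists, too, were chosen with earlier results of these data known. In EPSCM against ES 5 were called higher and 2 lower, 10.9% and 4.35% of the tested genes of the lists. In EPSCM against 2iLIF 4 were called higher and 3 lower, 8.70% and 6.52%, and in 2iLIF against ES 2 were called higher and 3 lower, 4.35% and 6.52%. Of these 6 shares 5 were below those of all genes given above, and the sixth, the genes lower in EPSCM than in 2iLIF, stood at 6.52% against 5.91%. The counts include genes tested only through the medium where they were high: Dner and Aph1b (EPSCM), Maml2 (2iLIF) and Dlk1 (ES).

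The fringe enzymes, which add a sugar to Notch receptors and so change which ligand they answer to, held the largest difference of these lists in both comparisons with 2iLIF. Mfng was at 4.48, 5.95 and 4.44 FPKM in EPSCM, at 0.341, 0.253 and 0.376 in 2iLIF and at 8.66, 6.71 and 7.23 in ES. The 2iLIF libraries lay far below the other 6. It was called higher in EPSCM than in 2iLIF, by 2.16 ± 0.12, and lower in 2iLIF than in ES, by -2.68 ± 0.12 (limma adjusted p = 4.00e-07 and 1.18e-07). Lfng went the same way at lower levels, 1.97 ± 0.301 FPKM in EPSCM, 0.172 ± 0.0642 in 2iLIF and 1.39 ± 0.204 in ES (SD, n = 3 libraries). Its difference was 1.34 ± 0.09 for EPSCM against 2iLIF and -1.03 ± 0.09 for 2iLIF against ES. The second call was lost under 5 of 21 alternatives, at -0.99 without 2iLIF replicate 3, -0.96 without ES replicate 1 and -0.95 in the 6 libraries that do not stand apart. The third fringe, Rfng, averaged 18.9 ± 1.09 FPKM in EPSCM, 20.7 ± 2.23 in 2iLIF and 13.2 ± 1.46 in ES and was called in no comparison.

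Of 3 tested genes that act on ligand uptake, 2 were called higher in EPSCM than in ES, against 11.7% of all tested genes. Mib1, the ubiquitin ligase that lets ligands be taken up and pull on the receptor, averaged 20.4 ± 2.86 FPKM in EPSCM, 14.3 ± 1.57 in 2iLIF and 8.66 ± 0.971 in ES (SD, n = 3 libraries). It was called in EPSCM against ES, at 1.14 ± 0.12. Neurl1a, a related ligase, was called there too, at 1.02 ± 0.07, a call lost under 6 of 22 alternatives. It stood at 0.89 after quantile normalization, 0.91 with median ratio scaling, 0.98 without EPSCM replicate 2 and 0.98 without ES replicate 2.

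Among noncanonical ligands, Dner averaged 2.26 ± 0.140 FPKM in EPSCM, 0.625 ± 0.0303 in 2iLIF and 0.247 ± 0.0523 in ES (SD, n = 3 libraries), so it was tested only through its EPSCM level. It was called in both EPSCM comparisons, at 1.39 ± 0.06 against ES and 1.00 ± 0.06 against 2iLIF. The second lies at the limit and was lost under 7 of 21 alternatives, at 0.66 after quantile normalization, 0.98 without EPSCM replicate 1, 1.00 without EPSCM replicate 3 and 0.99 without 2iLIF replicate 3. Dlk1, an imprinted noncanonical ligand tested only through its ES level, was called lower in 2iLIF than in ES, at -1.23 ± 0.07. Dll4, the Delta ligand of endothelium, stayed at or under 0.281 FPKM in all 9 libraries and was not tested. It averaged 0.210 ± 0.0660 FPKM in EPSCM, 0.0168 ± 0.0126 in 2iLIF and 0.0126 ± 0.0134 in ES (SD, n = 3 libraries). The EPSCM libraries of Dll4 lay above all others.

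Of the genes that cut the receptor, Adam10 averaged 13.5 ± 1.22 FPKM in EPSCM, 13.8 ± 0.743 in 2iLIF and 5.17 ± 0.329 in ES (SD, n = 3 libraries). It was called higher against ES both in EPSCM (1.23 ± 0.08) and in 2iLIF (1.26 ± 0.08), comparisons that share the ES libraries. Aph1b, a gamma-secretase subunit tested only through its EPSCM level, was called higher in EPSCM than in ES, at 1.38 ± 0.06, but it has a close copy in rodents, Aph1c, that may share its reads, so its single value is uncertain.

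In the nucleus, Rbpj averaged 28.6 ± 4.79 FPKM in EPSCM, 23.7 ± 3.44 in 2iLIF and 43.4 ± 8.20 in ES (SD, n = 3 libraries). In each medium its lowest value was that of the library that stands apart, 23.03 FPKM in EPSCM, 19.8 in 2iLIF and 34.4 in ES. Its differences were -0.58 ± 0.17 for EPSCM against ES, 0.25 ± 0.17 for EPSCM against 2iLIF and -0.84 ± 0.17 for 2iLIF against ES. None was called, with limma adjusted p-values of 0.0134, 0.222 and 0.00225.

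Maml2, a Mastermind coactivator, averaged 0.200 ± 0.0609 FPKM in EPSCM, 1.87 ± 0.181 in 2iLIF and 0.0503 ± 0.0220 in ES (SD, n = 3 libraries), so it passed the filter only through its 2iLIF level. It was called lower in EPSCM than in 2iLIF, at -1.26 ± 0.06, and higher in 2iLIF than in ES, at 1.45 ± 0.06. Its more abundant relative Maml1 averaged 5.28 ± 0.228 FPKM in EPSCM, 7.79 ± 0.275 in 2iLIF and 5.50 ± 0.240 in ES and was not called. The Groucho corepressor gene Tle4, whose protein HES repressors recruit, averaged 9.45 ± 0.477 FPKM in EPSCM, 20.3 ± 0.398 in 2iLIF and 26.8 ± 1.75 in ES (SD, n = 3 libraries). It was called lower in EPSCM than in ES, at -1.41 ± 0.06, and than in 2iLIF, at -1.03 ± 0.06, the second lost at -0.99 without EPSCM replicate 3. Spen, a corepressor of RBPJ, was lower in EPSCM than in 2iLIF, at -1.06 ± 0.08, and Dtx3l, of the Deltex ligase family, lower in EPSCM than in ES, at -1.04 ± 0.07.

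**Figure D4:**
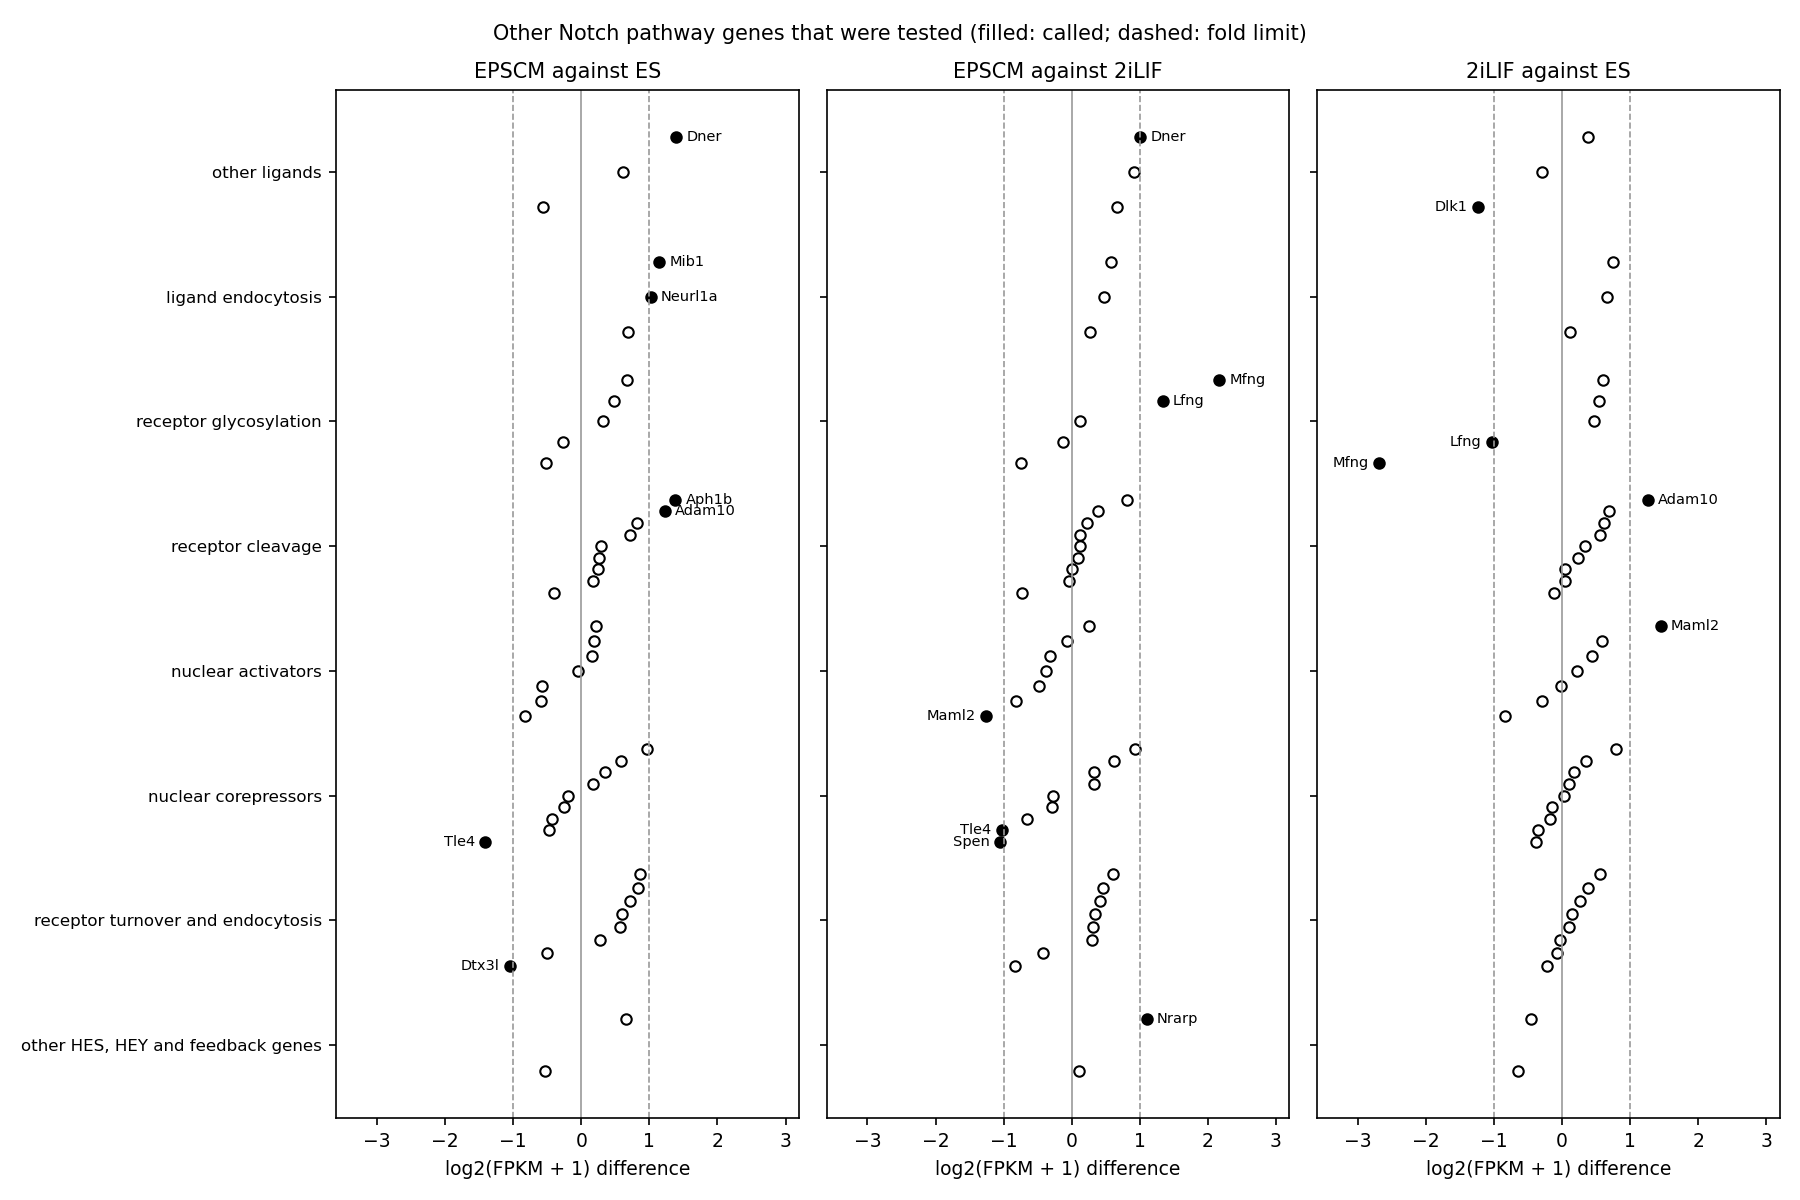
Differences on the log2(FPKM + 1) scale of the 46 other pathway genes tested, by list and comparison, with called genes filled and named and the fold limit dashed. Mfng has the largest difference in both comparisons with 2iLIF, and Tle4 is lower in EPSCM in both of its comparisons.

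The profiles of the called Notch genes were also set against all other tested and named genes, by the root mean square difference between log2 values over the 9 libraries after centring each gene. The closest were Limd2 (0.04) and Serpinh1 (0.05) for Notch1, Hpcal1 (0.04) and Upp1 (0.04) for Notch3, Bhlhe40 (0.06) and Proser2 (0.08) for Dll1, Slc38a3 (0.07) and Zap70 (0.08) for Jag2, and Sptb (0.05) and Abtb2 (0.06) for Hey1. These points share libraries and depth, so the likeness is a description. Between the Notch genes themselves the closest pair was Jag1 and Hes1 (0.15), neither of which was called, and the farthest was Dll1 and Hes1 (1.19).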

How the data were processed

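RNA-seq was made from E14 cells in EPSCM, 2iLIF and ES medium (3 libraries each) with a stranded mRNA kit, per the labels' protocols. The authors deposited 1 table of FPKM values. STAR, Cuffnorm and mm9 are named in the submitters' processing notes. Their versions, the annotation, the scaling and the use of strand go unstated there, and Cuffnorm can rescale libraries. Read counts were not used here.

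Columns were matched to libraries by title. The 12330 of 24819 genes that reached 1 FPKM in 3 or more of the 9 libraries were fitted as log2(FPKM + 1) with limma 3.58.1 in R 4.3.3 (trend in the prior variance, all 9 libraries, Benjamini-Hochberg over all tested genes), after the code was tested on simulated data. Tables and figures used Python 3.11.15, pandas 2.3.3, numpy 2.4.6 and matplotlib 3.10.9. Alternatives changed the pseudocount, filter, scaling, covariates, weights and libraries.

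The members and lists were chosen with earlier results of these data known. Named were all members, up to 4 called genes per pathway list by size of difference, Rbpj, Hes5, Dll4, Nrarp and Hes6, and the 2 most similar genes per called member, predicted genes left out. Rfng, Maml1, Aph1c and the HES and HEY genes under 1 FPKM were added after their values were seen. Promoters came from RefSeq on GRCm38.p6, another build than that of the table, and were matched by symbol for 8 of the 10 members.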

Additional observations from a re-analysis of the deposited data

How the results depend on the processing

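Every call of a Notch gene held under each alternative in which the gene was tested, and Dll1 gained 1, in 2iLIF against ES, at -2.17 with a pseudocount of 0.1. Among values of single Notch genes under alternatives, 640 kept direction and side of the threshold, and the 7 that changed sign were all uncalled. For EPSCM against ES after quantile normalization, Dll3 was at -0.21 (limma adjusted p = 0.0468) and Jag2 at -0.033. With median ratio scaling Dll3 was at -0.025 in that comparison. Leaving out 1 library gave -0.011 to 0.11 for Dll3 there, and -0.10 to 0.0084 for Jag1 in 2iLIF against ES, which was 0.013 with array weights. A pseudocount of 0.1 raised 3 counts past 1.5 times the reported value: 12 wider pathway genes in EPSCM against 2iLIF (7 as reported), and 2 Notch genes (1) and 2738 genes of all (1817) in 2iLIF against ES. Requiring 5 FPKM tests fewer genes, leaving out Notch4, Dll1, Dll3 and Jag1, and gave 1 Notch gene (2) and 4 wider pathway genes (7) in EPSCM against ES, 4 (7) in EPSCM against 2iLIF and 2 (5) in 2iLIF against ES. Median ratio scaling moved the median of all genes in EPSCM against ES to -0.01, against 0.09. The fit on the 6 close libraries was chosen after seeing the data. No paired analysis was made. The titles share no library number between media, and equal replicate numbers are not known to mark a shared culture. Depth limits Dll1 in 2iLIF, at about 1.25 to 2.88 fragments per library.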
